A study of Mus musculus with 8 samples.

Results

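The endothelial identity and apelin genes described here are 10 of the 55401 genes of a deposited RNA sequencing table of mouse cortical bone, the compact bone of the shaft. They are the apelin receptor gene Aplnr, its ligand gene Apln, the Tie receptor genes Tie1 and Tek, the VEGF receptor genes Kdr and Flt1, and the junction and surface genes Cldn5, Pecam1, Cdh5 and Emcn. They were chosen by gene name, with the difference between the groups in this table already known, so that difference is given for them as a description and not as a test. All 10 passed the filter on low counts, which 20152 genes of the table passed.

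The KO group was 4 libraries from C57BL/6J mice of the genotype UbcCre/ERT2 Ripk4fl/fl, in which floxed Ripk4 alleles are joined by a Cre recombinase driven by the ubiquitin C promoter and fused to a modified estrogen receptor. The control group was 4 libraries from C57BL/6J mice of the genotype Ripk4fl/fl, which carry the same floxed alleles without Cre; their titles call them WT. The ubiquitin C promoter is active in most cell types, so the deletion is not directed to bone or vessel cells, and Cre of this form acts only when its drug is bound. The sources used here name no such drug or its dose, and the labels give 4 weeks for both genotypes without saying of what. Since the control mice carry no Cre, effects of Cre and of Ripk4 loss cannot be told apart. The labels do not say that each library came from its own animal, so p-values measure only the spread between these libraries.

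Total estimated counts ran from 61092688 to 66774693 per library. Ripk4 had 0, 12, 0 and 0 counts in KO 1 to 4, against 10, 4, 0 and 4 counts in control 1 to 4, none above the floor of 12 counts, so its level does not check the genotypes. Transcripts of bone and of blood were both abundant. Col1a1, the main collagen of bone, stood at 124.6 to 373.9 FPKM in KO and 1026 to 3110 FPKM in control, Dmp1, an osteocyte gene, at 28.8 to 76.8 FPKM in KO and 128.8 to 221.3 FPKM in control, and S100a9, a neutrophil gene, at 27363 to 32322 FPKM in KO and 13624 to 19835 FPKM in control. FPKM are fragments scaled to gene length and to library depth, so they can be compared between genes. Muscle transcripts set libraries apart within both groups: the summed level of 10 skeletal muscle markers was 223.5, 1621.7, 728.7 and 196.3 FPKM in KO 1 to 4, against 420.4, 132.7, 3250.4 and 1893.7 FPKM in control 1 to 4.

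Endothelial cells line blood vessels, and in bone their capillaries run beside osteoblasts and drain into the sinusoids of the marrow. Their growth is driven by VEGF acting on Kdr, their quiescence by angiopoietin acting on Tek with Tie1 as its partner, and their cohesion by junction proteins such as VE-cadherin, the product of Cdh5. Apelin is a secreted peptide that signals through Aplnr, a G protein-coupled receptor found on endothelial cells, and in growing vessels Apln marks sprouting tip cells. Several of the 10 genes are also made elsewhere: Pecam1 by platelets and leukocytes, Flt1 by monocytes, and Tek and Emcn by blood stem cells.

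Of the 10 genes, 7 have a promoter in the RefSeq table of GRCm38.p6 (Emcn, Tek, Tie1, Kdr, Flt1, Cldn5 and Apln). The 250 bases before the RefSeq start of 3 of them are printed because these genes were lower in KO and differ in their matches to the core of the ETS factors, a family that includes the endothelial regulators Erg and Fli1. Each is written 5′ to 3′ along its gene's strand, with the core GGAA, or TTCC for the other strand, in capitals. Tie1 spans chr4:118489850-118490099 (minus strand), Cldn5 chr16:18776597-18776846 (plus strand) and Apln chrX:48034854-48035103 (minus strand).
Tie1: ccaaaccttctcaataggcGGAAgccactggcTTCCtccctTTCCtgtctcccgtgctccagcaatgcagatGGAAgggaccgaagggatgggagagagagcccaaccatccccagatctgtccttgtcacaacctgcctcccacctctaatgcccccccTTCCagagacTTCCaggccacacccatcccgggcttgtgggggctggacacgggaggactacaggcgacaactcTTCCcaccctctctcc
Cldn5: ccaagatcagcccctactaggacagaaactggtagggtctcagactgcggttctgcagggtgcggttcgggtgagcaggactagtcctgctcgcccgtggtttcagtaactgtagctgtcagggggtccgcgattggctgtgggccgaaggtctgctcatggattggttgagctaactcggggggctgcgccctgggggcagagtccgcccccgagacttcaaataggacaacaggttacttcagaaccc
Apln: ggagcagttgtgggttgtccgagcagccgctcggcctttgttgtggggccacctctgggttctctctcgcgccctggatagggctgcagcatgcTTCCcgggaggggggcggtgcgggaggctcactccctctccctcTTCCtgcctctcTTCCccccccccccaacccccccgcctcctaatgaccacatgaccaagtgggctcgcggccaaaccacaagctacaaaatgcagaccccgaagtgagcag
Tie1 held 7 matches to GGAA on either strand, a number that 3.82% of 32851 promoter windows of the same length reach. RefSeq starts Tie1 at 118489849, inside the gene as the deposited table places it (start at 118490061), so 212 of these bases lie within the gene by the table and 38 before it, with 2 of the 7 matches in those 38. The windows of Emcn and Kdr reach 11 and 3 bases into the gene by the table, and the other windows do not. Apln held 3, Kdr, Flt1 and Emcn 4 each, Tek 2 and Cldn5 0, while 93.4% of all windows hold at least 1. The GATA core, GATA on either strand, was found in 3 of the 7 windows (Tek, Kdr and Apln) and in 53.6% of all windows. The SOX core AACAAT, on either strand, was found in 2 of the 7 (Emcn and Tek) and in 9.42% of all windows. The motifs were searched separately and matches of different motifs may overlap. A match is a description of letters, not a bound site.

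Every 1 of the 10 genes had a lower fitted level in KO than in control. The fold change was largest for the apelin pair and smallest for Flt1, and its median over the 10 was -0.60 on the log2 scale, against -0.02 over all genes tested. Of the 20152 genes tested, 51.6% were lower in KO by fitted fold change. For 7 of the 10 genes (Aplnr, Apln, Tie1, Tek, Cldn5, Kdr and Cdh5) every KO library lay below every control library, as it did for 11.5% of all genes tested; 9.21% lay the other way, 20.7% in all. By the quasi-likelihood test of edgeR with a threshold of 0.05 on the adjusted p, 4 of the 10 (Aplnr, Tie1, Cldn5 and Kdr) were called lower, where 5.03% of all genes were, and 10.3% were called in either direction. The number called was 1 without KO 3, control 2, control 3 or control 4 and 2 without KO 1, and Aplnr was among them each time. Because the genes were chosen with this contrast known, nothing is read from these shares. In pieces of whole tissue, fewer cells of a type and less RNA per cell cannot be told apart.

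**Figure D1:**
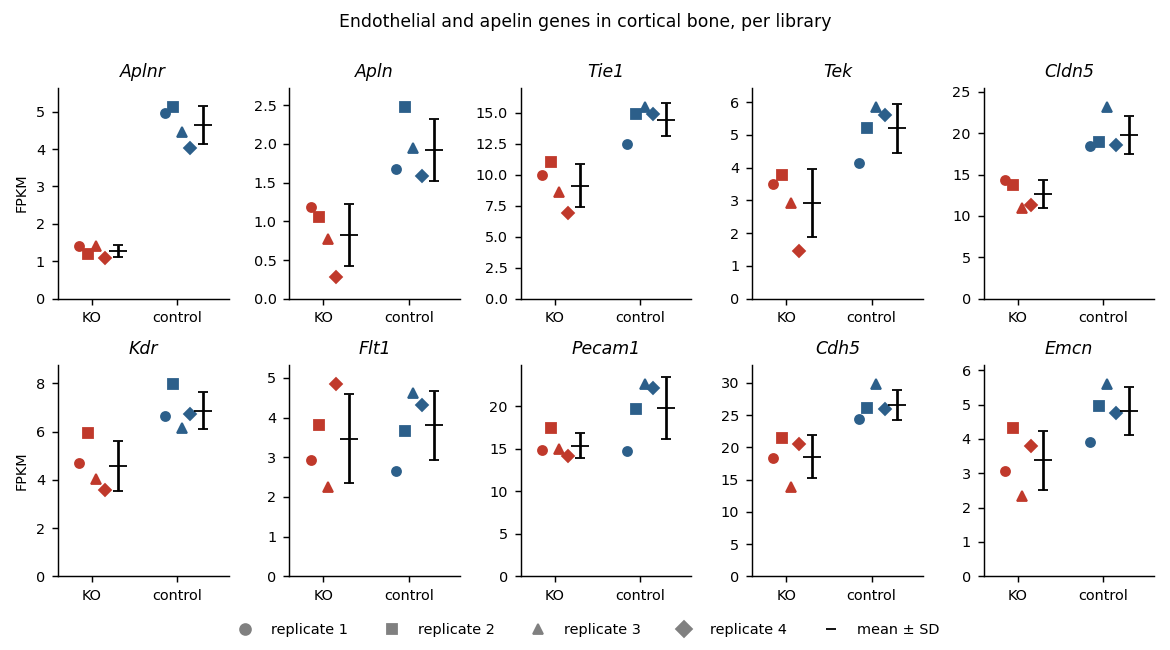
Level of each of the 10 genes in FPKM (vertical axes, each from 0) in the 4 KO libraries (red, left) and the 4 control libraries (blue, right), with the mean and SD in black. Aplnr sits at 1.1 to 1.42 FPKM in KO, against 4.02 to 5.13 FPKM in control, while the groups overlap for Flt1, Pecam1 and Emcn.

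Aplnr (ENSMUSG00000044338, GRCm38 chromosome 2, 85136225 to 85139923, plus strand), the apelin receptor, had 1.41, 1.19, 1.42 and 1.1 FPKM in KO 1 to 4, against 4.96, 5.13, 4.45 and 4.02 FPKM in control 1 to 4. The KO libraries lay close together and far below the lowest control library. The mean was 1.28 ± 0.159 FPKM in KO and 4.64 ± 0.504 FPKM in control (SD, n = 4 each). The log2 fold change of -1.83 ± 0.14 (SE), a level in KO 71.9% lower than in control, was lower than that of all but 2.34% of the genes tested. It ran from -1.90 to -1.78 with any 1 library left out, and it was -1.91 without control 3 and control 4, the libraries richest in muscle transcripts. The gene rested on 277 to 390 counts in KO and 1062 to 1317 in control.

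Apln (ENSMUSG00000037010, chromosome X, 48025146 to 48034853, minus strand), the gene of the ligand apelin, was the least abundant of the 10 in both groups. It had 1.18, 1.05, 0.767 and 0.279 FPKM in KO 1 to 4, against 1.68, 2.48, 1.95 and 1.59 FPKM in control 1 to 4. All KO libraries were below all control libraries, with KO 4 lowest by a wide margin. Its log2 fold change was -1.22 ± 0.39 (SE), and -0.95 without KO 4. In KO 4 it rested on 60 counts, or about 15 fragments if 1 fragment is worth 4 counts, so this value is the least certain of the 10.

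Tie1 (chromosome 4, 118471191 to 118490061, minus strand), a receptor tyrosine kinase without a known strong ligand of its own that modulates Tek, had 10, 11, 8.58 and 6.95 FPKM in KO 1 to 4, against 12.5, 14.9, 15.5 and 14.9 FPKM in control 1 to 4. The groups did not overlap, and the log2 fold change was -0.65 ± 0.15 (SE). Tek (chromosome 4, 94739289 to 94874976, plus strand), the angiopoietin receptor, had 3.51, 3.79, 2.92 and 1.46 FPKM in KO 1 to 4, against 4.15, 5.2, 5.86 and 5.6 FPKM in control 1 to 4. Here too the groups did not overlap, and KO 4 was again lowest. The log2 fold change of Tek was -0.82 ± 0.27 (SE), and -0.61 without KO 4. The ratio of Tie1 to Tek was 2.86, 2.9, 2.94 and 4.76 in KO 1 to 4, against 3.01, 2.86, 2.65 and 2.67 in control 1 to 4, so 3 KO libraries held the pair in about the proportion of the control libraries and KO 4 did not.

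Kdr (chromosome 5, 75932827 to 75978458, minus strand), the main signalling receptor for VEGF, had 4.71, 5.95, 4.05 and 3.56 FPKM in KO 1 to 4, against 6.63, 7.96, 6.16 and 6.73 FPKM in control 1 to 4. The groups were apart by a narrow margin between KO 2 and control 3, and the log2 fold change was -0.56 ± 0.14 (SE). Flt1 (chromosome 5, 147561604 to 147726011, minus strand), which binds VEGF and also exists as a secreted decoy, had 2.94, 3.82, 2.25 and 4.84 FPKM in KO 1 to 4, against 2.65, 3.66, 4.61 and 4.31 FPKM in control 1 to 4. The groups overlapped throughout: KO 4 was the highest of all 8 libraries and KO 3 the lowest. The log2 fold change of Flt1 was -0.11 ± 0.28 (SE) and turned to 0.05 without KO 3, 0.06 without control 3 and 0.21 without control 3 and control 4, so no direction is given for it. The ratio of Kdr to Flt1 was 1.6, 1.56, 1.8 and 0.736 in KO 1 to 4 and 2.51, 2.17, 1.34 and 1.56 in control 1 to 4, and the groups overlapped.

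Cdh5 (chromosome 8, 104101625 to 104144511, plus strand), which encodes VE-cadherin of the adherens junction, was the most abundant of the 10. It had 18.4, 21.4, 13.9 and 20.5 FPKM in KO 1 to 4, against 24.4, 26.1, 29.8 and 26.0 FPKM in control 1 to 4, with no overlap and a log2 fold change of -0.50 ± 0.16 (SE). Cldn5 (chromosome 16, 18776847 to 18778262, plus strand), the claudin of endothelial tight junctions, had 14.3, 13.8, 11 and 11.3 FPKM in KO 1 to 4, against 18.4, 18.9, 23.2 and 18.6 FPKM in control 1 to 4. Its groups did not overlap, control 3 stood above the other control libraries, and the log2 fold change was -0.63 ± 0.15 (SE), or -0.48 without control 3. The ratio of Cldn5 to Cdh5 averaged 0.692 ± 0.116 in KO and 0.742 ± 0.0294 in control (SD, n = 4 each), with overlapping groups.

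Pecam1 (chromosome 11, 106654217 to 106750628, minus strand), an adhesion protein of endothelium, platelets and leukocytes, had 14.9, 17.5, 15 and 14.1 FPKM in KO 1 to 4, against 14.7, 19.7, 22.6 and 22.2 FPKM in control 1 to 4. Control 1 was at the level of the KO libraries, so the groups overlapped, and the log2 fold change of -0.35 ± 0.16 (SE) was -0.48 without control 1 and -0.10 without control 3 and control 4. Emcn (chromosome 3, 137341067 to 137432185, plus strand), endomucin, a sialoglycoprotein of capillary and venous endothelium, had 3.07, 4.31, 2.33 and 3.79 FPKM in KO 1 to 4, against 3.91, 4.97, 5.59 and 4.75 FPKM in control 1 to 4. KO 2 lay above control 1, and the log2 fold change was -0.49 ± 0.22 (SE).

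**Figure D2:**
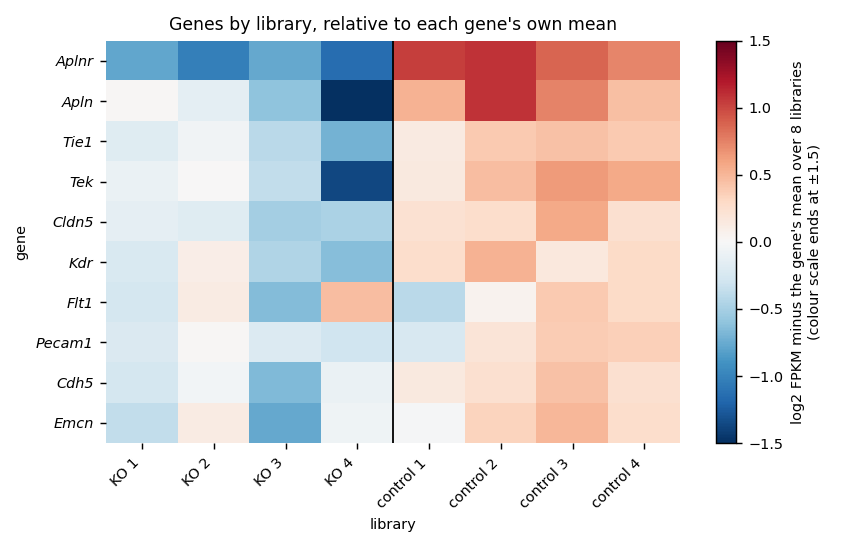
Each of the 10 genes (rows) in each library (columns, KO left of the black line, control right), as log2 FPKM minus the gene's mean over the 8 libraries. Aplnr is below its mean in all 4 KO libraries and above it in all 4 control libraries, and Flt1 in KO 4 is above its mean while Apln and Tek in KO 4 are far below theirs.

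The order of the levels was similar in the groups. In KO, by mean FPKM, it ran Cdh5 (18.6), Pecam1 (15.3), Cldn5 (12.6), Tie1 (9.14), Kdr (4.57), Flt1 (3.46), Emcn (3.38), Tek (2.92), Aplnr (1.28) and Apln (0.817). In control it ran Cdh5 (26.6), Pecam1 (19.8), Cldn5 (19.8), Tie1 (14.5), Kdr (6.87), Tek (5.2), Emcn (4.81), Aplnr (4.64), Flt1 (3.81) and Apln (1.92). Neighbours whose ranges over the 4 KO libraries overlapped were Cdh5 and Pecam1, Pecam1 and Cldn5, Kdr and Flt1, Flt1 and Emcn, Emcn and Tek, and Aplnr and Apln. In control they were Pecam1 and Cldn5, Tek and Emcn, Emcn and Aplnr, and Aplnr and Flt1. Thus the range of Aplnr overlapped those of Emcn and Flt1 in control, while in KO it lay below Tek in 4 of 4 libraries.

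Aplnr was also lower relative to the 8 genes of this set other than itself and Apln. These were chosen with the contrast known, so the ratio is a description. It does not set Aplnr apart from all vessel genes. Of the 105 others tested, 75 were lower and 30 higher by fitted fold change. Some had log2 fold changes near that of Aplnr, such as Nrp2 (-1.75) and Jam2 (-1.57). Divided by the geometric mean of the 8 genes other than Aplnr and Apln, its level was 0.201, 0.145, 0.246 and 0.177 in KO 1 to 4, against 0.594, 0.508, 0.402 and 0.392 in control 1 to 4. The groups did not overlap in this ratio, nor in the ratio of Aplnr to Cdh5, which averaged 0.072 ± 0.0227 in KO and 0.176 ± 0.0277 in control (SD, n = 4 each). The geometric mean of the 8 itself was 7.02, 8.23, 5.76 and 6.19 FPKM in KO 1 to 4, against 8.34, 10.1, 11.1 and 10.3 FPKM in control 1 to 4. It was thus lower in every KO library than in any control library, with KO 2 just below control 1. The ratio of Apln to the same geometric mean overlapped between the groups, at 0.045 to 0.168 in KO and 0.154 to 0.246 in control.

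The genes most like Aplnr in profile over the 8 libraries were not among the other 9. By the root mean square difference of log2 CPM, counts per library size, after centring each gene, the closest of 13572 genes with a mean of at least 1 FPKM were Tgtp2, an interferon-inducible GTPase (0.181), Plod2, a lysyl hydroxylase of collagen (0.202), 2010300C02Rik (0.209), Gprc5c, an orphan receptor (0.212), and Col5a1, a fibrillar collagen (0.236). Tgtp2 has a near-identical neighbour with which it can share reads. The closest of the other 9 was Apln, at place 495 with 0.565. For Cdh5 the closest genes were Luzp1 (0.0862), Emcn (0.105), Ldb2, a LIM domain binding cofactor (0.106), Sorbs3 (0.112) and Fbln5, an elastic fibre protein (0.116). Emcn was thus second, Cldn5 stood at place 44 (0.166), and Aplnr at place 11478 (0.725). The genes were centred but not scaled, so this distance depends strongly on the size of the difference between the groups. The 5 genes closest to Aplnr had log2 fold changes of -1.87 to -1.54, beside its own -1.83. The places thus largely restate the known difference, and nothing further is read from them.

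**Figure D3:**
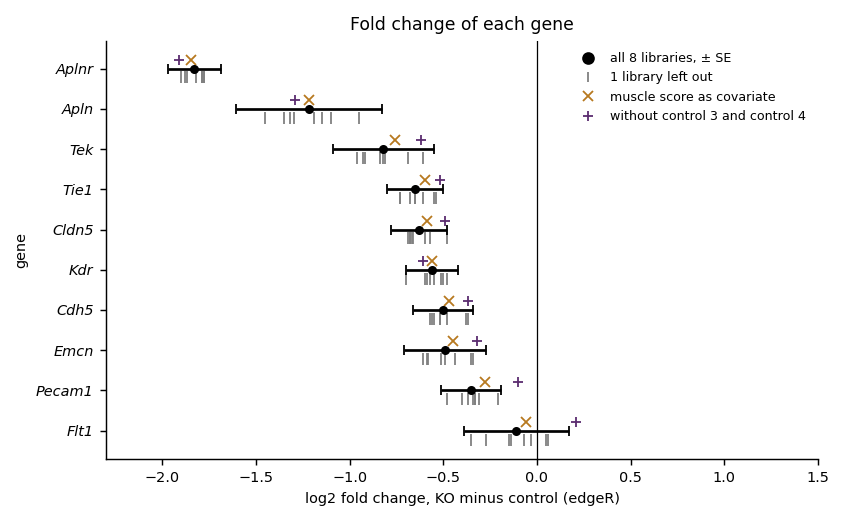
Log2 fold change, KO minus control, of each of the 10 genes (rows) with all 8 libraries (black, SE), with each library left out in turn (grey ticks), with the muscle score as a covariate (crosses) and without control 3 and control 4 (plus signs). Aplnr stays between -1.91 and -1.78 in these fits, while Flt1 lies on both sides of 0.

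Other transcripts moved with the groups as well, and their part in the lower levels of the 10 genes was not tested unless a value is given. Mitochondrial genes took 6.05%, 5.56%, 5.95% and 6.09% of the counts in KO 1 to 4, against 6.17%, 9.21%, 16.1% and 11.7% in control 1 to 4; the groups did not overlap, control 1 lay just above the KO libraries, and control 3 and control 4 were highest. Neutrophil markers were higher in KO: 7 of 10 rose and 0 fell, and their summed level was 59670.4, 60808, 69185.9 and 55735.7 FPKM in KO 1 to 4, against 42423.7, 39801.8, 32658.1 and 29572.8 FPKM in control 1 to 4. Osteoblast markers were lower: 7 of 10 fell, with sums of 635.4 to 1138 FPKM in KO and 3739.3 to 8845.8 FPKM in control. Of 10 markers of mural cells, the pericytes and smooth muscle cells that wrap vessels, 2 fell (Rgs5 and Cspg4) and 0 rose, with sums of 88.7 to 169.5 FPKM in KO and 165.7 to 315.5 FPKM in control, and KO 2 above control 1. All 10 mural markers were lower by fitted fold change, with a median of -0.85 on the log2 scale. By edgeR 7 of them had an unadjusted p under 0.05, and DESeq2 called 5 lower. Of 9 megakaryocyte and platelet markers 0 passed by edgeR, with 1 at an unadjusted p under 0.05 and 1 called by DESeq2, and with sums of 762.9 to 1238.4 FPKM in KO and 842.9 to 1454.3 FPKM in control. Monocyte and macrophage markers summed to 1654.7 to 3149.1 FPKM in KO and 2660.7 to 3348.1 FPKM in control, blood stem and progenitor markers to 42.9 to 54.7 FPKM in KO and 43.1 to 61.3 FPKM in control, and erythroid markers to 20362.7 to 31968.8 FPKM in KO and 8958.6 to 25307.8 FPKM in control, with overlapping groups in each list. Of 9 monocyte and macrophage markers 0 passed by edgeR, 3 were higher and 1 lower at an unadjusted p under 0.05, and DESeq2 called 2 higher and 1 lower. Cd14 was at 146.6 FPKM in KO 4, against 5.02 to 7.95 FPKM in KO 1 to 3. Ccr2 was also highest in KO 4, where Lyz2, Csf1r, Cd68 and Adgre1 were lowest. These genes are outside the naming rule, and their link to the level of Flt1 in KO 4 was not tested. Of 8 blood stem and progenitor markers 1 fell (Meis1, by 0.65) and 0 rose, with 3 lower and 1 higher at an unadjusted p under 0.05. Of 7 tested B cell markers 2 fell (Vpreb1 and Ebf1) and 0 rose, with 0 higher at an unadjusted p under 0.05 and 0 called higher by DESeq2, and with sums of 20.6 to 26.9 FPKM in KO and 21.6 to 27 FPKM in control. Adipocyte markers summed to 15.7 to 99.4 FPKM in KO and 27.9 to 95.5 FPKM in control, and 0 of 6 passed by edgeR or DESeq2, with 1 at an unadjusted p under 0.05. None of the markers in these lists was at or below the floor of 12 counts in every library.

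Skeletal muscle, itself rich in capillaries, was followed by 10 markers, of which 0 passed by edgeR or DESeq2 and 0 had an unadjusted p under 0.05. All 10 muscle markers were nevertheless lower in KO by fitted fold change, with a median of -1.04 on the log2 scale. Their spread within the groups was wide, with sums of 196.3 to 1621.7 FPKM in KO and 132.7 to 3250.4 FPKM in control. Within the groups, the library with the most muscle transcripts was the highest for most of the 10 genes: control 3 was the highest control library for 7 of them, and KO 2 the highest KO library for 6. At the low end, KO 4, with the fewest muscle transcripts of the KO libraries, was the lowest of them for 6 of the 10 genes, while control 1 was the lowest control library for 7 and control 2 held the fewest muscle transcripts. Muscle was not alone in this. Within the groups, the mural marker sum was highest in KO 2 (169.5 FPKM) and control 3 (315.5 FPKM) and lowest in KO 4 (88.7 FPKM) and control 1 (165.7 FPKM). The osteoblast sum was highest in control 3 (8845.8 FPKM) but, among KO libraries, in KO 1 (1138 FPKM). The part of each in this order was not tested. With the muscle score of each library as a covariate, the log2 fold change was -1.85 for Aplnr, -1.22 for Apln, -0.76 for Tek, -0.60 for Tie1, -0.59 for Cldn5, -0.56 for Kdr, -0.47 for Cdh5, -0.45 for Emcn, -0.28 for Pecam1 and -0.06 for Flt1. In that fit 2 of the 10 (Aplnr and Tie1) were called by edgeR, and without control 3 and control 4 only Aplnr was. Over all genes, 808 of 20152 were called lower with the muscle score and 32 of 21392 without control 3 and control 4. In the main fit 1013 of 20152 were. Without control 3 and control 4, the lost calls of the 10 genes came with a large loss over the whole table. With the muscle score the calls went from 4 to 2 among the 10 and from 1013 to 808 over the table. Why calls were lost was not tested.

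**Figure D4:**
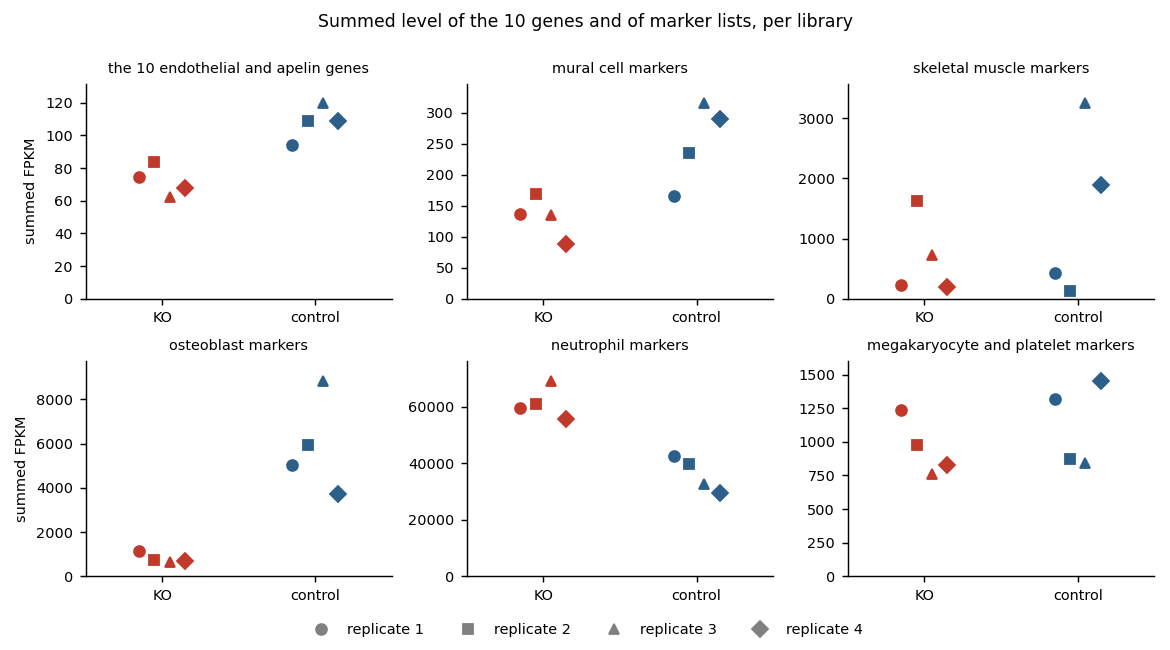
Summed FPKM (vertical axes, each from 0) of the 10 endothelial and apelin genes and of 5 marker lists in the KO libraries (red, left) and the control libraries (blue, right). The sum of the 10 genes is 62.2 to 83.8 FPKM in KO, against 94 to 119.7 FPKM in control, and the muscle sum is highest in control 3.

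The rest of the vessel programme was followed in 9 lists of 107 other genes, of which 105 were tested. More of them fell than rose: by edgeR's adjusted p 18 fell and 7 rose, 75 were lower by fitted fold change and 30 higher, and the median log2 fold change was -0.44. Over all genes tested 5.03% fell and 5.31% rose. The falls were Gnai1, Vegfc, Nrp2, Jam2, Jam3, Ptprm, Mmrn2, Ecscr, Cd34, Sox18, Klf4, Bcl6b, Jag2, Hey1, Hey2, Heyl, Gja5 and Unc5b, and the rises were Furin, Arrb2, Gnai2, Gnai3, Fli1, Hhex and Bmx. The falls stand beside the lower osteoblast and mural markers given above, and the rises beside the higher neutrophil markers. The part of these cells in either was not tested. Leaving out control 2 left 4 falls, control 3 left 5, control 4 left 6, KO 3 left 7 and KO 1 left 11, and the number that rose was 2 without control 2, control 3, control 4 or KO 3. Arrb2, Gnai1, Nrp2, Jam2, Heyl and Bmx passed with any 1 library left out.

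Around the apelin receptor, genes of its signalling partners differed in both directions. Of 8 tested genes 4 rose and 1 fell, with a median log2 fold change of 0.15. Arrb2, an arrestin that binds activated receptors and is abundant in leukocytes, averaged 206.2 ± 19.6 FPKM in KO and 103.8 ± 14.4 FPKM in control (SD, n = 4 each) and rose by 1.02 on the log2 scale (edgeR adjusted p = 0.00357). Gnai1, an inhibitory G protein subunit, fell to 2.04 ± 0.659 FPKM in KO, against 6.72 ± 1.98 FPKM in control (log2 fold change -1.72, edgeR adjusted p = 0.0144). The related subunit genes Gnai2 (0.52, edgeR adjusted p = 0.0241) and Gnai3 (0.48, edgeR adjusted p = 0.0228) rose, as did Furin, a proprotein convertase named after its value was seen (0.86, edgeR adjusted p = 0.0391). The calls of these 3 were lost without KO 3, control 2, control 3 or control 4, those of Gnai2 and Furin also without KO 1, and that of Furin also without KO 4 or control 1, with edgeR adjusted p up to 0.0697 for Gnai2, 0.0703 for Gnai3 and 0.0977 for Furin. Arrb2, Gnai2 and Gnai3 were far more abundant than Aplnr itself. Gnai2 averaged 240.4 ± 15.5 FPKM in KO and 172 ± 25.3 FPKM in control, and Gnai3 50.6 ± 4.04 FPKM in KO and 37 ± 3.48 FPKM in control (SD). These rises stand beside that of the neutrophil markers given above, whose part was not tested. Apela, the gene of the other peptide that binds the receptor, was at or below the floor in every library.

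Among VEGF ligands and the other VEGF receptors 2 of 8 fell and 0 rose, with a median log2 fold change of -0.47. Nrp2, a co-receptor for VEGF and semaphorins, fell to 9 ± 3.58 FPKM in KO, against 30.4 ± 6.93 FPKM in control (log2 fold change -1.75, edgeR adjusted p = 0.0146). Vegfc, which acts on lymphatic and sinusoidal endothelium, fell to 4.26 ± 1.26 FPKM in KO, against 7.89 ± 0.942 FPKM in control (-0.87, edgeR adjusted p = 0.0296). Its call was lost without KO 3 or any 1 of the control libraries (edgeR adjusted p up to 0.0791). Nrp1 (-0.45) and Pgf (-0.97) did not pass. Vegfa, the ligand of Kdr, averaged 13.9 ± 5.91 FPKM in KO and 14 ± 1.2 FPKM in control (0.04 ± 0.27 SE). The similar means hide a split among the KO libraries, at 11.9, 12.2, 9.13 and 22.6 FPKM in KO 1 to 4. Control 1 to 4 held 15.7, 12.9, 13.9 and 13.4 FPKM. KO 1 to 3 thus lay below every control library and KO 4 above every one, so no direction is given for Vegfa. It is outside the naming rule and was chosen after its value was seen.

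Of 6 genes of angiopoietins and Tie regulation 0 fell and 0 rose by edgeR's adjusted p, with 2 at an unadjusted p under 0.05 and a median log2 fold change of -0.52. DESeq2 called 2 of them lower. Grb14, an adaptor that binds Tek, averaged 0.598 ± 0.355 FPKM in KO and 1.67 ± 0.222 FPKM in control (edgeR adjusted p = 0.0549), and Ptprb, the endothelial phosphatase that restrains Tek, 3.72 ± 0.637 FPKM in KO and 5.91 ± 1.54 FPKM in control (edgeR adjusted p = 0.111). Dok2 and Angpt4 had log2 fold changes of -0.39 and -0.85 and did not pass.

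Of 22 other endothelial surface and junction genes 6 fell and 0 rose, 20 were lower by fitted fold change, and the median was -0.48. Jam2, a junctional adhesion molecule, had the smallest p of the 105 genes and fell to 3.01 ± 0.597 FPKM in KO, against 9.13 ± 1.45 FPKM in control (log2 fold change -1.57 ± 0.15 SE, edgeR adjusted p = 0.0025). Mmrn2, an endothelial matrix glycoprotein, fell to 7.95 ± 1.82 FPKM in KO, against 14.8 ± 1.89 FPKM in control (-0.88, edgeR adjusted p = 0.0222). Ecscr, an endothelial surface protein, fell by 0.90 on the log2 scale and Ptprm, a receptor phosphatase of endothelial contacts, by 0.95 (edgeR adjusted p = 0.025 and 0.0252). The calls of these last 3 were lost without KO 3, control 2, control 3 or control 4, and those of Ecscr and Ptprm also without KO 1 (highest edgeR adjusted p 0.0663 for Mmrn2, 0.0711 for Ecscr and 0.0749 for Ptprm). Jam3 (-1.25) and Cd34 (-0.65), also called, lie outside the naming rule; Jam3 lost its call without KO 1, KO 3, control 1, control 2 or control 4, and Cd34 without any 1 library but control 1. An exon of Ecscr lies across from one of another gene, and as the strand setting is not known their reads cannot be told apart.

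**Figure D5:**
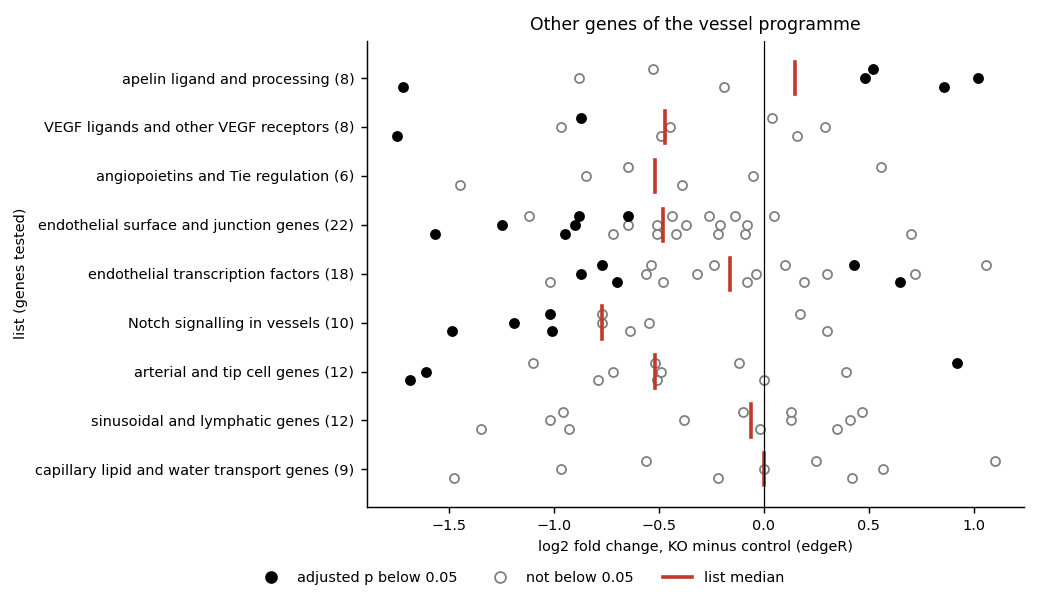
Log2 fold change, KO minus control, of each tested gene (points) in 9 lists of other vessel genes (rows, with the number tested), filled where the edgeR adjusted p was below 0.05, with list medians in red. The median of the Notch list is -0.77 and those of the sinusoidal and capillary lists lie near 0, at -0.06 and 0.00.

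Notch signalling, which sets arterial fate and restrains sprouting, had 4 of 10 genes falling and 0 rising, the lowest median of the 9 lists (-0.77), and 8 lower genes at an unadjusted p under 0.05. Notch1, a Notch receptor named after its value was seen, was the 1 higher gene at that level (log2 fold change 0.30) and did not pass (edgeR adjusted p = 0.175). The genes of the HEY transcription factors, direct Notch targets, were lower together: Heyl stood at 1.32 ± 0.25 FPKM in KO and 2.72 ± 0.278 FPKM in control (log2 fold change -1.02, edgeR adjusted p = 0.012), Hey1 at 1.26 ± 0.327 FPKM in KO and 2.91 ± 0.41 FPKM in control (-1.19, edgeR adjusted p = 0.0169), and Hey2, named after its value was seen, at 0.269 ± 0.12 FPKM in KO and 0.763 ± 0.115 FPKM in control (-1.49, edgeR adjusted p = 0.0311). Jag2, a Notch ligand, fell by 1.01 (edgeR adjusted p = 0.0239), and the endothelial receptor gene Notch4 had a log2 fold change of -0.77 and an edgeR adjusted p of 0.0587. The call of Hey1 did not hold when control 2 or control 3 was left out (highest edgeR adjusted p 0.0542), and that of Hey2 when KO 1, control 2, control 3 or control 4 was (highest 0.0895). The call of Jag2 held only without KO 2, KO 4 or control 1 (highest edgeR adjusted p 0.0705). HEY and Jagged genes are also active in bone-forming and mural cells, whose markers are given above; their part in these falls was not tested.

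Of 18 endothelial transcription factor genes 3 fell and 2 rose, with a median log2 fold change of -0.16. Sox18, a vessel-forming SOX factor, fell to 13.1 ± 2.73 FPKM in KO, against 24.1 ± 3.81 FPKM in control (-0.87, edgeR adjusted p = 0.0254), Klf4, a flow-responsive factor also made in other cells, by 0.70 (edgeR adjusted p = 0.0248), and Bcl6b, an endothelial repressor, by 0.77 (edgeR adjusted p = 0.0288). Fli1, an ETS factor of both endothelium and blood cells, rose to 24.3 ± 1.57 FPKM in KO, against 18.4 ± 1.24 FPKM in control (0.43, edgeR adjusted p = 0.0216), and Hhex, outside the naming rule, rose by 0.65 (edgeR adjusted p = 0.0312). Each of the 5 lost its call without control 2 or control 3, all but Bcl6b without control 4, all but Klf4 without KO 3, and Klf4 and Bcl6b also without KO 1 (highest edgeR adjusted p 0.0744 for Sox18, 0.0739 for Klf4, 0.0782 for Bcl6b, 0.0635 for Fli1 and 0.0891 for Hhex).

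Of 12 arterial and tip cell genes 2 fell and 1 rose, with a median log2 fold change of -0.52. Gja5, the connexin of arterial endothelium, fell to 1.78 ± 0.804 FPKM in KO, against 5.45 ± 1.77 FPKM in control (-1.61, edgeR adjusted p = 0.0345), and Unc5b, a netrin receptor of arteries and tip cells, to 4.34 ± 2.01 FPKM in KO, against 14.1 ± 3.97 FPKM in control (-1.69, edgeR adjusted p = 0.0332). Both calls were lost without KO 2, KO 3, control 2, control 3 or control 4, and that of Unc5b also without control 1 (highest edgeR adjusted p 0.092 for Gja5 and 0.0825 for Unc5b). An exon of Gja5 overlaps a gene on the opposite strand. Bmx, a kinase of arterial endothelium and of myeloid cells, rose to 14.8 ± 2.08 FPKM in KO, against 8 ± 1.14 FPKM in control (0.92, edgeR adjusted p = 0.0107), beside the rise of neutrophil markers given above, whose part was not tested. Sema3g, an arterial semaphorin, had a log2 fold change of -0.72 and did not pass (edgeR adjusted p = 0.0605).

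In the sinusoidal and lymphatic list 0 of 12 genes fell or rose by edgeR's adjusted p, 3 had an unadjusted p under 0.05, DESeq2 called 1 in each direction, and the median log2 fold change was -0.06. Pdpn, of lymphatic endothelium and of osteocytes, had a log2 fold change of -1.35 (edgeR adjusted p = 0.0572), Fcgr2b 0.47, Ephb4 -0.38 and Selp 0.41. The sinusoidal scavenger receptor genes Stab1 and Stab2, chosen after their values were seen, averaged 9.99 ± 1.83 and 7.59 ± 2.43 FPKM in KO and 10.4 ± 1.7 and 7.07 ± 1.69 FPKM in control, with log2 fold changes of -0.02 ± 0.15 and 0.13 ± 0.22 (SE). In the list of capillary lipid and water transport genes 0 of 9 fell or rose by edgeR's adjusted p, 1 had an unadjusted p under 0.05, DESeq2 called 0, and the median was 0.00. Its named genes were Tcf15 (-1.48), Fabp4 (0.57), Meox2 (-0.97) and Lpl (-0.56), of which 0 passed. Whether the lists differ from each other was not tested.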

How the data were processed

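RNA of mouse cortical bone was measured in 8 libraries. The authors deposited 1 table with estimated counts and FPKM values (scaled to gene length and depth). Per the submitters' processing notes, the tools were HISAT2 2.0.4, StringTie 1.3.4d and DESeq2 and the genome was GRCm38, with no roles named. The counting tool and strand setting were not given in the sources used. Of the estimated counts the authors deposited, 0 were not whole. Values of 4 (7854) were commoner than values of 3 (2724), so about 4 counts were assumed per fragment, and levels of at most 12 counts were treated as not measurable. The deposited FPKM is 0.0001 where the count is 0 and was set to 0. All 10 genes have the same start and end in GENCODE M21 (GRCm38), and none shares an exon with another gene there.

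Counts were fitted by edgeR 4.0.16 (R 4.3.3) and tested by its two-sided quasi-likelihood test. Scaling was TMM, genes were kept by filterByExpr (minimum count 10), and p-values were adjusted by Benjamini-Hochberg over all 20152 genes, with a threshold of 0.05. SE is the log2 fold change divided by the square root of the test statistic. The fit was tested on simulated data. Alternatives were other scalings, no filter, DESeq2 1.42.0, limma 3.58.1 on log2(FPKM + 0.5), with 0.1 and 1 as other pseudocounts, the replicate number as a block, a muscle score as a covariate (the mean centred log2 CPM of 10 muscle markers), and libraries left out. The genes, lists, markers and alternatives were chosen with earlier results of these data known; leaving out control 3 with KO 4 was added after seeing the data. Named genes are the 10, up to 4 per list with the smallest p among genes of at least 1 FPKM on average, and the 5 closest in profile to Aplnr and to Cdh5; any other gene is marked as outside this rule. 0 columns of sample values were left unused. Floors cover counting error only.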

Additional observations from a re-analysis of the deposited data

Results flagged for a closer look

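Of 152 groups of 4 libraries examined, 9 held a library far from the other 3, where chance gives about 1 in 20. The number flagged is thus close to that rate. The groups share the same 8 libraries, so the rate is a rough guide only. Hey1 in KO 4 was at 0.774 FPKM, where the other KO libraries held 1.38 to 1.46, and the ratio of Tie1 to Tek in KO 4 was 4.76, against 2.86 to 2.94. Arrb2 was at 235.6 FPKM in KO 3, against 194.9 to 198.6, and Ephb4 at 8.69 FPKM in KO 2, against 5.79 to 6.14; an exon of Ephb4 overlaps another gene on the opposite strand. Control 3 held 23.2 FPKM of Cldn5, against 18.4 to 18.9 in the other control libraries, 19.7 FPKM of Plod2, against 15.4 to 16, and 16.6 FPKM of Fli1, against 18.7 to 19.2. Gprc5c was at 4.0 FPKM in control 4, against 5.6 to 5.89, and Luzp1 at 2.82 FPKM in control 1, against 3.2 to 3.27.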

How the results depend on the processing

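The alternatives refit the same libraries, and the 10 genes were chosen with this contrast known. Their values here describe only how the result depends on the settings and are no further evidence for it. Aplnr was called in all 19 alternatives, and its log2 fold change ran from -1.91 to -1.31, the value nearest 0 coming with a pseudocount of 1. Of 190 fold changes of the 10 genes under the alternatives, 187 were below 0. The others were of Flt1: 0.05 without KO 3, 0.06 without control 3 (range -0.35 to 0.06 with 1 library left out) and 0.21 without control 3 and control 4. With 1 library left out, 1 to 4 of the 10 genes were called, 4 to 23 of the other vessel genes fell and 2 to 8 rose, and 323 to 1134 of all genes fell and 398 to 1096 rose; such omissions also shrink the groups. DESeq2 called 7 of the 10 lower, 29 other vessel genes as falling and 10 as rising, and 2130 falls and 2059 rises among all genes. Without control 3 and control 4 the counts were 1 of the 10, 1 fall and 0 rises (8 at an unadjusted p under 0.05) among the other vessel genes by edgeR, and 32 falls and 24 rises among all. Without control 3 and KO 4 they were 1 of the 10, 11 falls and 3 rises among the other vessel genes, and 573 falls and 750 rises among all. With the muscle score 2 of the 10 were called, with 16 falls and 7 rises among the other vessel genes and 808 falls and 832 rises among all. With the replicate number as a block 1 of the 10 was called, with 1 fall and 0 rises (12 at an unadjusted p under 0.05) among the other vessel genes by edgeR and 28 falls and 28 rises among all. Deviations of same-numbered libraries from their group means correlated at 0.106, -0.172, 0.0916 and -0.055. In 0 of 4 pairs were the libraries each other's best match. With so few libraries this cannot exclude that same-numbered libraries share more than a number, and the labels do not say. The cause of the changes in the numbers called was not tested. Depth limits Apln most.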
